A study of Rattus norvegicus with 15 samples.

Results

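Primary hepatocytes of the rat, cultured under flow in microfluidic biochips with solvent alone, were described by the level of each transcript, from the 5 arrays titled as DMSO controls among the 15 arrays of the series (n = 5 of 15). No measured value was used to choose these arrays. Freshly isolated hepatocytes had adhered for 24 h on collagen in medium with serum and insulin, and were then perfused at 25 µl/min in serum-free DMEM-F12 with insulin, transferrin and selenium in an incubator given as 32 °C. The 5 control biochips, numbered 10, 11, 20, 21 and 22 in the sample titles, received DMSO, whose concentration the labels do not give. In the same system 6 biochips received 10 µM flutamide and 4 received 100 µM flutamide for 24 h, and those 10 arrays are used here only for comparison. The labels give no strain, sex or age and do not say whether the biochips hold cells of separate animals, so the spread between arrays, and every p-value below, measures the spread between these biochips, which may be technical.

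In the intact liver, hepatocytes secrete most plasma proteins, make bile acids, dispose of ammonia as urea, hold glucose and fat metabolism in balance, and oxidise and conjugate foreign compounds. Their enzymes are graded along the lobule, with urea synthesis and gluconeogenesis strongest near the portal vein and much of the cytochrome P450 system strongest near the central vein. Isolated hepatocytes in culture are known to lose part of this programme and to build up cytoskeleton, matrix and stress genes, and a preparation can carry macrophages (Kupffer cells), endothelial cells and stellate cells along.

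Levels are given on the deposited log2 scale, on which a difference of 1 is 2-fold. As a floor, the 95th percentile of 1105 olfactory receptor genes, which belong to the nose and not to the liver, was taken in each array. It lay at 5.16, 5.21, 5.12, 5.08 and 5.21 in biochips 10, 11, 20, 21 and 22, the order kept for every set of 5 values below. The median olfactory receptor gene was at 3.50 and the median of all 14506 genes at 5.79. A gene was counted as above the floor when it passed it in all 5 arrays, as 8394 of 14506 genes did (57.9%, or 62.3% of genes other than olfactory receptors). At the 99th percentile it was 6557 genes (45.2%). A stricter mark, the highest olfactory receptor gene of each array (6.54 to 6.86), was passed by 4549 genes (31.4%). Probe sets differ in how strongly they respond, so a level places a gene among signals, genes are not set against each other as amounts of RNA, and a gene that is not above the floor is not shown to be silent.

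The hepatocyte label was checked against marker genes first. Albumin (Alb), the main plasma protein, read 12.88, 12.93, 12.66, 12.83 and 12.96, which is 12.85 ± 0.12 (SD, n = 5) and rank 7 of all genes. Apolipoprotein B (Apob), the scaffold of secreted lipoproteins, read 10.61, 10.85, 11.35, 11.15 and 11.57 (11.11 ± 0.38, rank 263). Cyp1a2, a P450 of the pericentral zone, read 10.17, 10.33, 9.74, 8.96 and 9.61 (9.76 ± 0.53, rank 890). These 3 genes were far above the floor in every biochip, with Alb the most even and Cyp1a2 lowest in biochip 21. Vimentin (Vim), a filament protein of mesenchymal and dedifferentiated cells, read 6.57, 6.65, 6.31, 6.50 and 6.38 (6.48 ± 0.14, rank 5671). Cd163, a scavenger receptor of macrophages, read 6.62, 5.68, 7.06, 8.00 and 5.87 (6.65 ± 0.94, rank 5326). Both were also above the floor in every biochip, Vim evenly and Cd163 with the widest spread of the 5 markers. Neither passed the stricter mark, the highest olfactory receptor gene, in all 5 arrays.

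**Figure D1:**
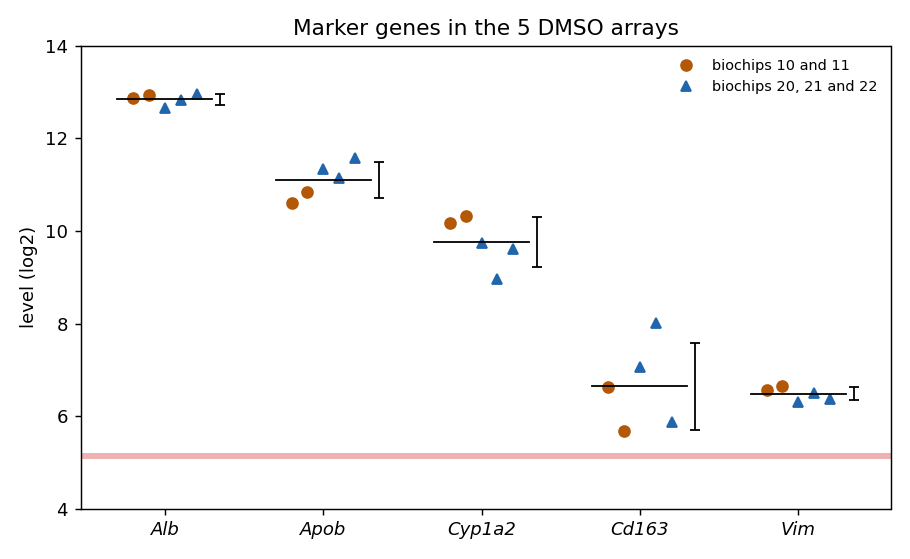
Level (log2, vertical axis) of the 5 marker genes in each DMSO array, with circles for biochips 10 and 11, triangles for biochips 20, 21 and 22, a line at the mean, a bar of ±1 SD (n = 5), and a red band for the range of the floor over the arrays (5.08 to 5.21). Alb lies between 12.66 and 12.96, and Cd163 spreads from 5.68 to 8.00.

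The strongest signals were not those of secreted proteins alone. The 15 genes of highest mean level were Rps28 (13.20), Fth1 (13.11), Rps20 (13.02), Gstm1 (12.96), Mt1 (12.91), Ftl1 (12.89), Alb (12.85), Fabp7 (12.83), Orm1 (12.73), Rpl5 (12.72), Rpl37l1 (12.69), Hspa8 (12.69), Ctsl (12.67), Rpl41 (12.61) and Ptgr1 (12.59). They cover ribosomal proteins, both chains of the iron store ferritin (Fth1, Ftl1), a glutathione transferase, the metal-binding metallothionein Mt1, the acute phase protein Orm1, the chaperone Hspa8, the lysosomal protease Ctsl and the fatty acid binding protein known from brain, Fabp7. Mt1 read 13.20, 13.03, 12.80, 12.87 and 12.63, and Fabp7 read 12.98, 12.97, 12.70, 12.85 and 12.68. Among the 100 highest genes, 35 were ribosomal proteins, 12 were on the hepatocyte lists, 2 were on the dedifferentiation lists and 0 were markers of other cell types. Among the 500 highest the same counts were 64, 52, 7 and 0. All 67 measured ribosomal protein genes were above the floor, with a median level of 11.95.

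Hepatocyte genes stood above the share of all genes, and markers of other cell types and organs stood below it. The lists were made by hand with earlier results of these data known, so these shares describe the lists and are not independent support. Of 281 measured genes on hepatocyte lists, 247 were above the floor (87.9%, against 57.9% of all genes), and 182 passed the highest olfactory receptor gene (64.8%, against 31.4%). Of 145 markers of other cell types, 42 were above the floor (29.0%), and 7 passed the stricter mark. Of 43 genes of organs outside the liver, taken as a reference, 7 were above the floor (16.3%) and 0 passed the stricter mark. Those 7 were Ckm, Mog, Prm1, Tnnt2, Ins2, Myl7 and Prm2, genes of muscle, myelin, sperm, heart and pancreatic islet, with levels of 5.38 to 6.54. A level in that range is therefore also reached by genes with no known part in the liver. The other roles lay between. Above the floor were 38 of 52 zonation genes (73.1%), 57 of 85 of dedifferentiation (67.1%), 35 of 52 of growth (67.3%) and 21 of 34 isoforms (61.8%). The share was 57.9% of all genes and 62.3% without olfactory receptors.

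**Figure D2:**
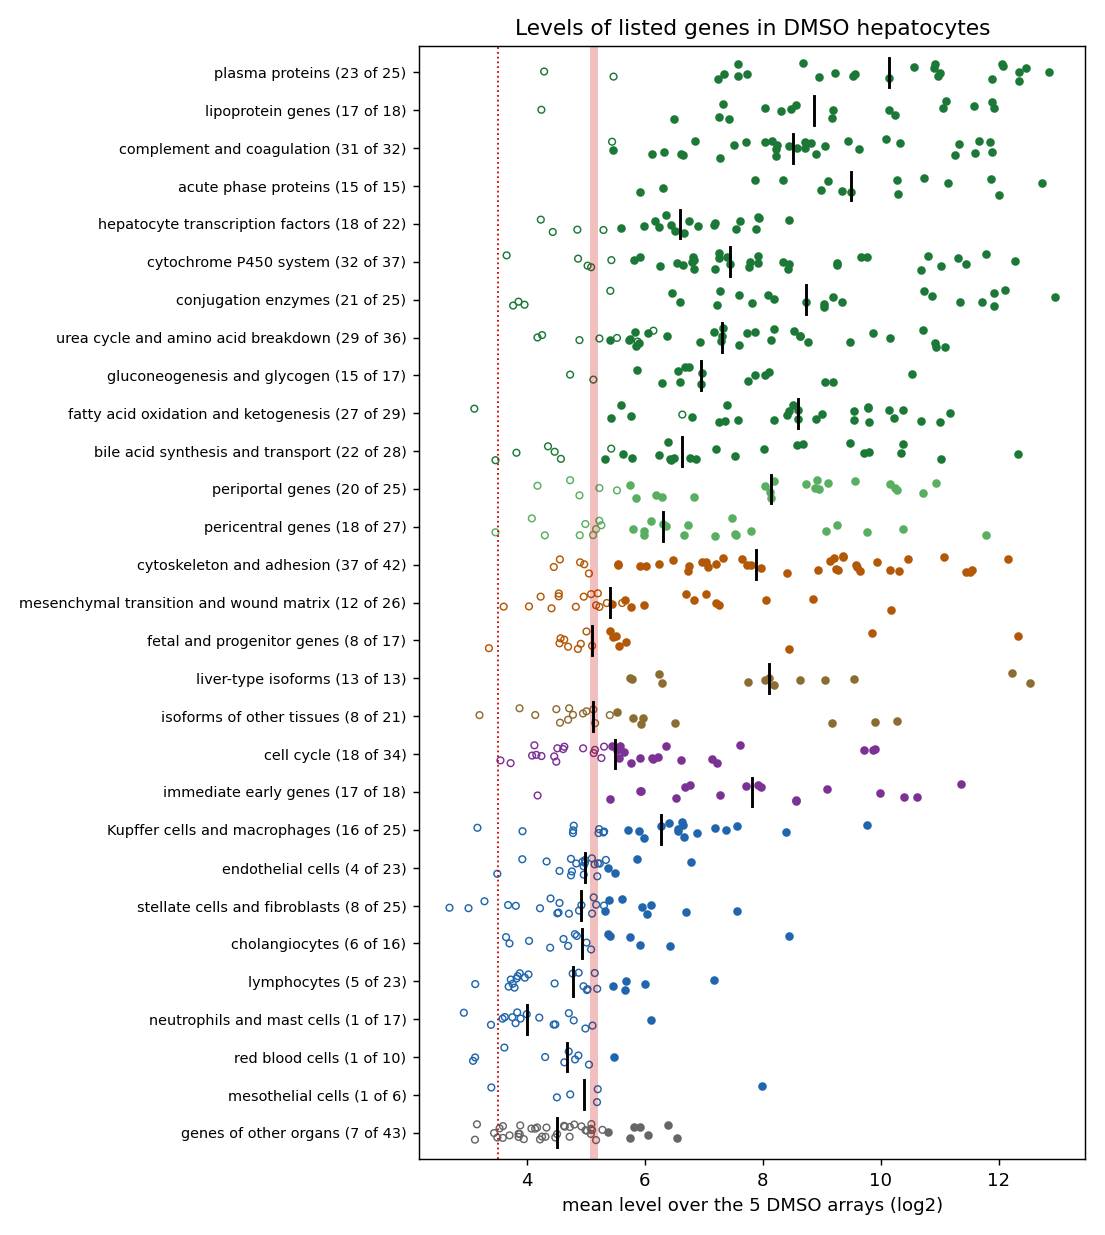
Mean level over the 5 DMSO arrays (log2, horizontal axis) of each measured gene of 29 lists, with filled points above the floor in all 5 arrays, open points for the rest, a black tick at the list median, a red band for the floor and a dotted line at the median olfactory receptor gene (3.50). Labels give the genes above the floor of those measured; medians run from 10.14 for plasma proteins to 4.00 for neutrophils and mast cells.

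Genes of secreted proteins filled the upper part of the range. Of 25 plasma protein genes, 23 were above the floor (92.0%, against 57.9% of all genes) with a median level of 10.14. The list was led after Alb by Ambp (12.46 ± 0.15), the haem scavenger Hpx (12.35 ± 0.14), the vitamin D carrier Gc (12.34 ± 0.07) and Serpina1 (12.07 ± 0.13). The exceptions were Igfals, which passed the floor in 4 arrays (mean 5.47), and the thyroxine carrier Serpina7 (4.29), which passed it in 0. Afm, a vitamin E carrier, had the largest spread of the list, with 7.66, 8.35, 6.58, 7.54 and 7.74. Of 18 lipoprotein genes, 17 were above the floor (94.4%, median 8.87), and Apof at 4.25 was not. Apoe (11.92 ± 0.07), Apoh (11.89 ± 0.08), Apoa1 (11.58 ± 0.35), Apob and Apoc3 (11.06 ± 0.55) led it. Apoc2, the activator of lipoprotein lipase, read 9.88, 9.43, 7.98, 9.42 and 9.15, lowest in biochip 20 and spread over 3.75-fold.

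Complement and coagulation genes were above the floor in 31 of 32 cases (96.9%, against 57.9% of all genes, median 8.51), the exception being C6, which passed in 4 arrays. The 3 chains of fibrinogen, the clot protein, ranked 111 (Fgg), 121 (Fgb) and 219 (Fga). Fgg read 11.96, 12.05, 11.87, 11.67 and 11.91, Fgb read 11.50, 11.66, 12.11, 12.09 and 11.88, and Fga read 11.11, 11.36, 11.56, 11.25 and 11.31. Kng1 (11.66 ± 0.20) and complement C3 (11.60 ± 0.19) stood beside them. Mbl2, a lectin that starts complement activation, was the most variable member, with 7.20, 7.25, 8.71, 8.82 and 8.21. All 15 acute phase genes were above the floor (median 9.50). Orm1 (12.73 ± 0.13), haptoglobin Hp (12.00 ± 0.19) and Lbp (11.86 ± 0.28) led. A2m, which rises in the rat acute phase, read 11.15, 11.33, 10.61, 11.06 and 9.55, and Hamp, the iron hormone hepcidin, read 8.59, 9.53, 10.08, 9.33 and 8.04. Both were lowest in biochip 22, and Hamp spread over 4.11-fold.

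The start regions of Alb, Fgb and Fga are shown as examples, at high levels, of promoters that hold the letters GTTAAT, on which sites of the liver factor HNF1 are known to be built. The third fibrinogen gene, Fgg, had 0 matches in the 250 bases searched. Each is the 150 bases before the RefSeq start on the gene's own strand (rat assembly GRCr8), at chr14:17906980-17907129 on the minus strand for Alb, chr2:170700876-170701025 on the minus strand for Fgb and chr2:170672019-170672168 on the plus strand for Fga, with GTTAAT or its reverse complement ATTAAC in capitals.
Alb: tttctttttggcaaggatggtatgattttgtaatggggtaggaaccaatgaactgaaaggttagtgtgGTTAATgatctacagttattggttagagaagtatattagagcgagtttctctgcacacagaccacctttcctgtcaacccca
Fgb: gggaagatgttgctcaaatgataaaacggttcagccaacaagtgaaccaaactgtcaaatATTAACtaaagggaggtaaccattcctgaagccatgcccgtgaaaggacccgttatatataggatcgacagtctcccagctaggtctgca
Fga: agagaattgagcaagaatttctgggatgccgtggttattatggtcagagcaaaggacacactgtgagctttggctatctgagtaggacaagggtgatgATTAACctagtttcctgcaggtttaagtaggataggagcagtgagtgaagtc
The capitals begin 82, 90 and 52 bases before the start. Searched on both strands in the 250 bases before each start, the letters occurred in 16 of 70 genes of the plasma protein, lipoprotein, complement and coagulation, and acute phase lists that had a sequence (22.9%). By list these were 5 of 20, 4 of 12, 7 of 26 and 0 of 12. They occurred in 672 of 11950 measured genes (5.62%), in 31 of 607 genes of the highest 5% by level (5.11%) and in 2160 of 33469 of all RefSeq promoters (6.45%). Among genes above the floor it was 296 of 7066 (4.19%), and among genes above it in no array 329 of 3975 (8.28%). The share with these letters was thus above that of all measured genes in 3 of the 4 lists, and that of the highest-level genes was not. The lists were chosen by hand, the shares were not tested, and a match is a run of letters and not a measured site.

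Transcription factors of the hepatocyte were at lower signals, with 18 of 22 above the floor (81.8%, against 57.9% of all genes) and a median of 6.59. The highest olfactory receptor gene was passed by 8 of the 22, against 31.4% of all genes. Hnf4a, the nuclear receptor at the head of the hepatocyte programme, read 7.82, 8.08, 8.92, 8.81 and 8.56, with the values of biochips 20, 21 and 22 all above those of 10 and 11. Rxra (7.94 ± 0.19), Prox1 (7.91 ± 0.44), Creb3l3 (7.88 ± 0.60) and Nr5a2 (7.61 ± 0.47) followed. Creb3l3, a factor of the fasting and acute phase responses, was the most variable. Cebpa, a factor of the mature hepatocyte, read 5.33, 5.82, 5.37, 5.77 and 5.72, just above the floor. Foxa1 passed it in 4 arrays, and Gata4 (4.86), Esr1 (4.44) and the bile acid-induced repressor Nr0b2 (4.24) in 0.

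Genes of drug metabolism were largely above the floor, as were 57.9% of all genes. It was passed by 32 of 37 of the cytochrome P450 system (86.5%, median 7.45) and 21 of 25 conjugation enzymes (84.0%, median 8.73). Microsomal epoxide hydrolase Ephx1 (12.27 ± 0.10) and Cyp3a23-3a1 led the former, followed by Cyp2c22 (11.45 ± 0.45), Cyp2a1 (11.30 ± 0.67) and Cyp1a1. Cyp3a23-3a1, of the subfamily that handles most drugs, read 11.87, 11.71, 11.82, 11.74 and 11.79, among the most even genes of the list. Cyp1a1, which the aryl hydrocarbon receptor induces, read 11.05, 10.66, 11.16, 11.03 and 11.19. Cyp2b1, which the receptor CAR induces, read 7.30, 6.05, 8.29, 7.19 and 8.42, a spread of 5.16-fold and the largest SD of the list (0.96). Its near-identical neighbour Cyp2b2, whose probe set may share its signal, read 5.91, 5.83, 6.83, 6.33 and 7.82. Both were lowest in biochip 11 and highest in biochip 22.

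The sex-biased P450s of the rat were at low signals. Cyp2c11, the main P450 of the male rat liver, read 4.76, 6.20, 4.94, 5.55 and 5.72 and passed the floor in 3 arrays, and Cyp2c12, the counterpart in females, read 3.65, 3.69, 3.39, 3.71 and 3.83 and passed it in 0. Cyp2c13, another P450 of male rats, averaged 6.82 ± 0.79 with 7.45 in biochip 11 and 7.76 in biochip 21. Cyp2c11 and Cyp2c13 were both lower in biochips 10 and 20 than in the other 3. Cyp4f4 and Fmo1 passed the floor in 2 arrays and Cyp2b3 in 0. Among conjugation enzymes, Gstm1 (12.96 ± 0.06), Mgst1 (12.11 ± 0.14), Gsta1 (11.92 ± 0.09), Ugt2b1 (11.91 ± 0.39) and Ugdh (11.71 ± 0.14) led. The sulfotransferases Sult2a2 (3.96), Sult2a1 (3.86) and Sult1c3 (3.77) passed the floor in 0 arrays and the glucuronosyltransferase Ugt2b7 in 4.

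Amino acid metabolism was uneven within its list, with 29 of 36 above the floor (80.6%, against 57.9% of all genes, median 7.30). Hpd (11.09 ± 0.16), Glud1 (10.92 ± 0.30) and Tat (10.72 ± 0.11), enzymes of tyrosine and glutamate breakdown, were high. In the urea cycle itself, Ass1 read 10.72, 10.85, 11.16, 10.82 and 11.17, while Cps1, its entry enzyme, read 8.07, 7.64, 8.23, 8.64 and 8.10, and Asl and Arg1 averaged 10.15 and 8.18. Otc, the mitochondrial enzyme that makes citrulline, read 3.95, 4.25, 4.25, 4.28 and 4.18, below the floor in every array. Gnmt, a methyl-group sink, had the largest SD of the list, with 6.60, 4.95, 6.72, 7.07 and 5.38, low in biochips 11 and 22. Nags, Agxt and Ftcd passed in 4 arrays and Sds (4.89) and Acmsd (4.26) in 0.

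In gluconeogenesis and glycogen metabolism, 15 of 17 genes were above the floor (88.2%, against 57.9% of all genes, median 6.95). They were led by Gbe1 (10.52 ± 0.14), Ugp2 (9.18 ± 0.24) and the glucose transporter Slc2a2 (9.05 ± 0.37). Pck1, the rate-setting enzyme of gluconeogenesis, read 6.47, 6.46, 5.71, 6.85 and 5.93. G6pc1, which releases free glucose, read 4.64, 4.82, 4.69, 4.66 and 4.86 and passed the floor in 0 arrays. Fatty acid oxidation was broadly present, with 27 of 29 above the floor (93.1%, median 8.59) and Acadl (11.17 ± 0.11), Decr1 (11.01 ± 0.37), Cyp4a3 (10.68 ± 0.57) and Etfa (10.38 ± 0.04) in the lead. Liver fatty acid binding protein, Fabp1, was among the most variable genes of the liver lists, with 5.16, 7.53, 6.81, 6.85 and 6.83. It was at the floor in biochip 10 and well above it in the other 4. Acot1 (3.11) passed in 0 arrays.

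For bile acids, 22 of 28 genes were above the floor (78.6%, against 57.9% of all genes, median 6.63). Several exporters were at high ranks and the first enzymes of synthesis near or below the floor. The canalicular pump Abcc2 read 12.00, 12.18, 12.49, 12.60 and 12.39 (rank 35), and the bile salt pump Abcb11 read 9.40, 9.32, 9.93, 9.97 and 9.95. Abcb1b (11.03 ± 0.45), Akr1c14 (10.37 ± 0.33) and Abcb1a (10.34 ± 0.16) were also high. Cyp7a1, the rate-limiting enzyme of bile acid synthesis, read 3.49, 3.57, 3.41, 3.29 and 3.58, at the median of olfactory receptor genes. Cyp7b1 (3.82), the sterol exporters Abcg8 (4.58) and Abcg5 (4.47) and the uptake carrier Slco1a4 (4.36) passed the floor in 0 arrays as well, and Slc51a in 4. Cyp8b1, the sterol 12-hydroxylase, was the listed gene just inside the floor (5.17, 5.37, 5.21, 5.37 and 5.47), and Fabp1 the one just outside.

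Genes of both ends of the lobule were measured. Of 25 periportal genes, 20 were above the floor (80.0%, against 57.9% of all genes) with a median of 8.14, among them Ass1, Tat, Itih4 (10.27 ± 0.26), Apoa4 (10.23 ± 0.11) and Asl. The periportal genes outside it were Agxt and Ftcd (4 arrays each), Sds, G6pc1 and Otc. Of 27 pericentral genes, 18 were above the floor (66.7%) with a median of 6.31, a share near that of all genes, as was the count of 9 above the highest olfactory receptor gene. They were led by Cyp3a23-3a1, Lect2 (10.38 ± 0.42), Cyp1a2, Cyp2e1 and Aldh3a2 (9.08 ± 0.27). Cyp2e1, an ethanol-oxidising P450, read 8.85, 8.26, 9.76, 9.73 and 9.68, higher in biochips 20, 21 and 22. The pericentral genes not above the floor included the Wnt pathway genes Rnf43 (3 arrays), Nkd1 (2), Tbx3 (1), Notum (0) and Lgr5 (0), and also Avpr1a, Slc1a2, Sult5a1 and Cyp7a1. Axin2, another Wnt target, was above it at 5.77, 5.80, 5.86, 5.86 and 5.71. The glutamine synthetase gene, the usual pericentral marker, is not analysed here.

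Of the genes linked with dedifferentiation, those of cytoskeleton and adhesion were above the floor in 37 of 42 cases (88.1%, median 7.88), against 57.9% of all genes, whereas genes of mesenchymal transition and wound matrix were in 12 of 26 (46.2%, median 5.40) and fetal and progenitor genes in 8 of 17 (47.1%, median 5.10), below that share. Cytoskeletal actin Actg1, whose gene has 6 probe sets, read 11.92, 11.92, 12.34, 12.63 and 11.96 (rank 61), followed by Tuba1b (11.54 ± 0.16), S100a10 (11.51 ± 0.11), Actb (11.44 ± 0.13) and Tpm4 (11.07 ± 0.20). Anxa3, an annexin, was the most variable, with 7.77, 8.41, 9.67, 9.69 and 9.12. S100a6 read 8.15 in biochip 10 and 6.26 to 6.57 in the others, while the hyaluronan receptor Cd44 read 7.13, 6.84, 6.87, 6.18 and 8.16. The genes below were Myl9, Tubb2b, Tuba1a, Tpm2 and Anxa1.

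Fibronectin Fn1, which hepatocytes also secrete into plasma, led the mesenchymal list with 9.81, 9.90, 10.44, 10.45 and 10.31, followed by Cdh2 (8.86 ± 0.20) and Ccn1 (8.06 ± 0.43). The transition factors Snai1 (4.54) and Twist1 (4.54) passed the floor in 0 arrays, Snai2 in 2 and Zeb2 in 1, while Zeb1 (7.04 ± 0.19) passed in all 5. Timp1, a protease inhibitor of wound matrix, had the largest SD, with 6.43, 7.12, 5.25, 5.80 and 5.32. Among fetal and progenitor genes, Gstp1, a glutathione transferase that is scarce in adult rat hepatocytes, read 12.40, 12.49, 12.19, 12.16 and 12.38 (rank 36). Aldh1a1 (9.85 ± 0.32) and Epcam (8.44 ± 0.28) followed. The fetal plasma protein Afp read 5.77, 5.72, 5.32, 5.10 and 5.62, at the edge of the floor, and Igf2 (4.91), Gpc3 (4.63) and Prom1 (3.36) passed it in 0 arrays.

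Among isoforms, all 13 measured on the list named liver-type were above the floor (median 8.10). Of isoforms of other tissues, 8 of 21 were (38.1%, against 57.9% of all genes, median 5.13). The liver-type list is not limited to enzymes or to forms found only in the liver, so its count does not measure liver identity. Its highest gene, Ldha, read 12.43, 12.40, 12.59, 12.65 and 12.59. The keratins Krt18 (12.22 ± 0.28) and Krt8 (9.55 ± 0.17), which are proteins of simple epithelia in general, were also high. Among isoforms of other tissues, Mat2a, the extrahepatic methionine adenosyltransferase, read 10.10, 10.25, 10.34, 10.36 and 10.32. Its liver form Mat1a read 8.00, 7.89, 9.52, 9.22 and 8.56. Aldoa (9.90 ± 0.08) and the widespread glucose transporter Slc2a1 (8.49, 8.89, 9.97, 9.32 and 9.18) were also above the floor, whereas the hexokinases Hk1 (4.95), Hk2 (4.14) and Hk3 (4.50) passed it in 0 arrays.

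Immediate early genes were above the floor in 17 of 18 cases (94.4%, against 57.9% of all genes, median 7.82). Egr1, a growth factor-induced transcription factor, read 11.26, 11.53, 11.47, 11.33 and 11.19, and Zfp36 (10.61 ± 0.20), Jun (10.39 ± 0.16) and Atf3 (9.98 ± 0.29) followed, whereas Nr4a1 (4.18) passed in 0 arrays. Cell cycle genes were above it in 18 of 34 cases (52.9%, against 57.9% of all genes, median 5.49). The highest were the arrest gene Cdkn1a (10.41, 10.13, 9.66, 9.99 and 9.32), the replication clamp Pcna (9.87 ± 0.24), Cdk4 (9.71 ± 0.35) and Cdk6 (7.62 ± 0.34). The mitotic genes Cdk1 (4.13), Ccnb1 (4.25), Top2a (4.62), Bub1 (4.46), Aurkb (4.50) and Cdc20 (4.95) passed in 0 arrays. At the 99th percentile of olfactory receptor genes, 11 of the 34 cell cycle genes remained above the floor, and 3 of the 17 fetal and progenitor genes and 3 of the 21 isoforms of other tissues, against 45.2% of all genes. The G1 cyclin Ccnd1 read 5.94, 6.25, 6.18, 6.64 and 6.12.

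Of the lists for other liver cell types, that of macrophages had the largest share above the floor, about that of all genes at this floor only. Of 25 markers of Kupffer cells and macrophages, 16 were above the floor (64.0%, against 57.9% of all genes and 62.3% without olfactory receptors) with a median of 6.27, against 4 of 23 for endothelial cells (median 4.98), 8 of 25 for stellate cells and fibroblasts (4.92), 6 of 16 for cholangiocytes (4.93) and 5 of 23 for lymphocytes (4.78). Neutrophils and mast cells had 1 of 17, red blood cells 1 of 10 and mesothelial cells 1 of 6. With the 99th percentile of olfactory receptor genes as the floor, the counts were 8 for macrophages, 1 for endothelial cells, 4 for stellate cells and fibroblasts, 2 for cholangiocytes and 2 for lymphocytes. The highest olfactory receptor gene was passed by 3 macrophage genes (Cd14, Cd68 and Lyz2) and 0 endothelial genes. It was also passed by 1 gene each of the stellate (Acta2), cholangiocyte (Epcam), lymphocyte (Gzmb) and mesothelial (Gpm6a) lists. Of all genes, 45.2% passed the 99th percentile and 31.4% the highest olfactory receptor gene. The macrophage share was below that of all genes at both. In these bulk samples, fewer cells of a type and less RNA per cell cannot be told apart. The macrophage genes not above the floor were Aif1 (3 arrays), the Kupffer cell lectin Clec4f (4), the lineage factor Spi1 (4), Csf1r (2), Adgre1 (1), and Ptprc, Cx3cr1, Itgam and Ccr2 (0).

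The macrophage markers above the floor had the largest median SD over biochips of the lists with more than 1 such gene (0.53). Vsig4, a complement receptor of Kupffer cells, read 7.11, 5.80, 7.26, 8.60 and 5.67, a 7.65-fold spread. Ctss, a lysosomal protease of antigen-presenting cells, read 8.20, 6.53, 7.96, 8.86 and 6.27, and the mannose receptor Mrc1 read 7.16, 6.33, 8.25, 8.40 and 6.74. As with Cd163, biochip 21 was highest and biochips 11 and 22 lowest. That order, with 21 highest and 11 and 22 as the lowest pair, held for 10 of the 16 markers above the floor, and the other 6 were highest in biochip 10. The mean over the 25 markers was 6.32, 5.79, 6.13, 6.59 and 5.76, and over the flutamide arrays it ran from 5.46 to 7.13 at 10 µM and from 5.44 to 6.21 at 100 µM. Clec4f, near the floor, was also highest in biochip 21 and lowest in 22 (5.59, 5.31, 5.15, 5.66 and 4.76).

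Cd14 and Cd68 were among those without that order. Cd14, the endotoxin co-receptor, which hepatocytes are also known to make, read 9.97, 9.84, 9.89, 9.44 and 9.72. Cd68, a lysosomal membrane protein, read 10.15, 9.87, 7.18, 7.28 and 7.52, with biochips 10 and 11 far above the other 3.

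**Figure D3:**
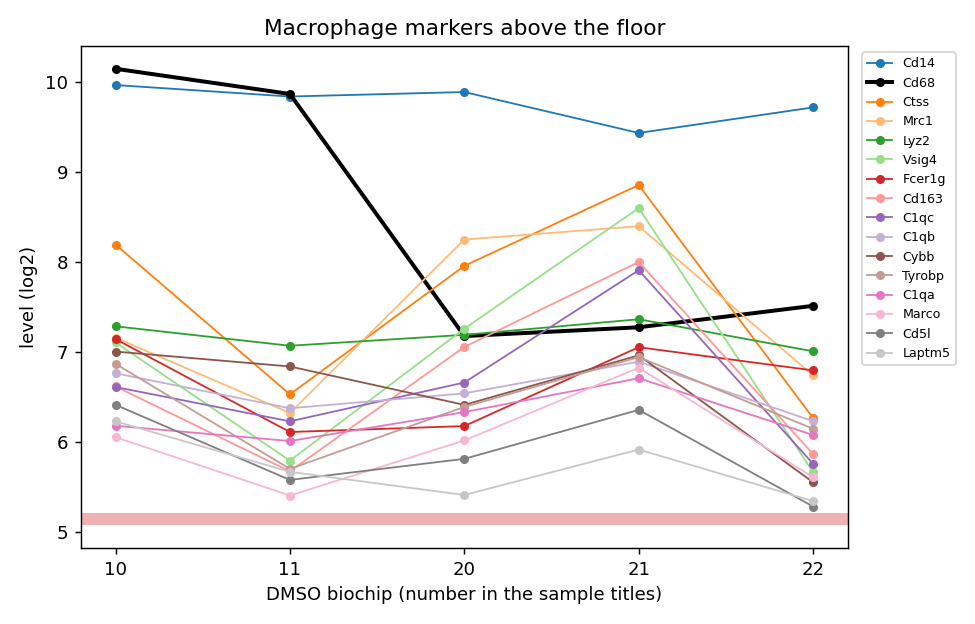
Level (log2, vertical axis) of the 16 macrophage-list genes above the floor in each DMSO biochip (horizontal axis), 1 line per gene, with Cd68 in black and the floor as a red band. Most lines dip at biochips 11 and 22 and peak at 10 or 21, whereas Cd68 is near 10 in biochips 10 and 11 and between 7.18 and 7.52 in the others.

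In the remaining cell type lists, the most used markers were near or below the floor, while single members of 4 lists were well above it. For endothelium, Pecam1 read 5.34, 4.95, 5.20, 5.16 and 5.38, and Kdr read 4.22, 4.24, 5.01, 4.90 and 4.40, while Lyve1, Cdh5 and Tek were not above the floor either. The 4 endothelial genes above it were Esam (6.77 ± 0.49), Eng (5.86), Oit3 (5.49) and Gpihbp1 (5.37). For stellate cells, desmin (Des, 4.22), the retinol ester enzyme Lrat (4.55) and Pdgfrb (4.71) passed in 0 arrays. Smooth muscle actin Acta2 nevertheless read 7.50, 7.47, 7.65, 7.72 and 7.51, and Col1a1 (6.70 ± 0.08), Sparc (6.11 ± 0.41), Col1a2 (6.04 ± 0.13), Hand2, Ngfr, Colec11 and Cygb were above the floor. For bile duct cells, Krt7 (5.01), Krt19 (4.70) and Cftr (4.04) passed in 0 arrays, although Epcam read 8.14, 8.55, 8.42, 8.86 and 8.23 in these cells. Slc4a2, Bicc1, Aqp5, Muc1 and Aqp1 were the others above it. For lymphocytes, Cd3e (3.96) and Ms4a1 (3.79) passed in 0 arrays, whereas granzyme B (Gzmb) read 6.96, 7.25, 7.27, 6.84 and 7.53, and Cd79b, Cd27, Cxcr3 and Zap70 were above the floor at lower levels. The single genes above the floor in the remaining lists were Fcnb (6.11), Klf1 (5.47) and Gpm6a (7.98 ± 0.47). Haemoglobin genes, which are on none of the lists and were looked at after their values were seen, were above the floor in all 5 arrays. Hbb-b1 read 5.33, 5.41, 7.37, 7.40 and 7.22, and Hbb, a near-identical copy, read 5.98, 5.56, 6.55, 7.25 and 6.92, both higher in biochips 20, 21 and 22, while Hba-a3 read 5.79 to 6.20.

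For most genes the 5 biochips gave nearly the same level. Among the 8394 genes above the floor, the median SD was 0.188 and the median ratio of the highest to the lowest array was 1.38-fold. The ratio passed 2-fold in 746 genes (8.89%) and 4-fold in 46. Ribosomal protein genes were the most even, with a median SD of 0.054. The median SD of members above the floor was 0.15 for plasma proteins, 0.28 for urea cycle and amino acid breakdown, 0.34 for fatty acid oxidation, 0.43 for the cytochrome P450 system and 0.53 for macrophage markers. Of the P450 system genes above the floor, 18 of 32 had an SD in the top 10% of all genes above it (over 0.393), and of the macrophage markers 11 of 16.

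**Figure D4:**
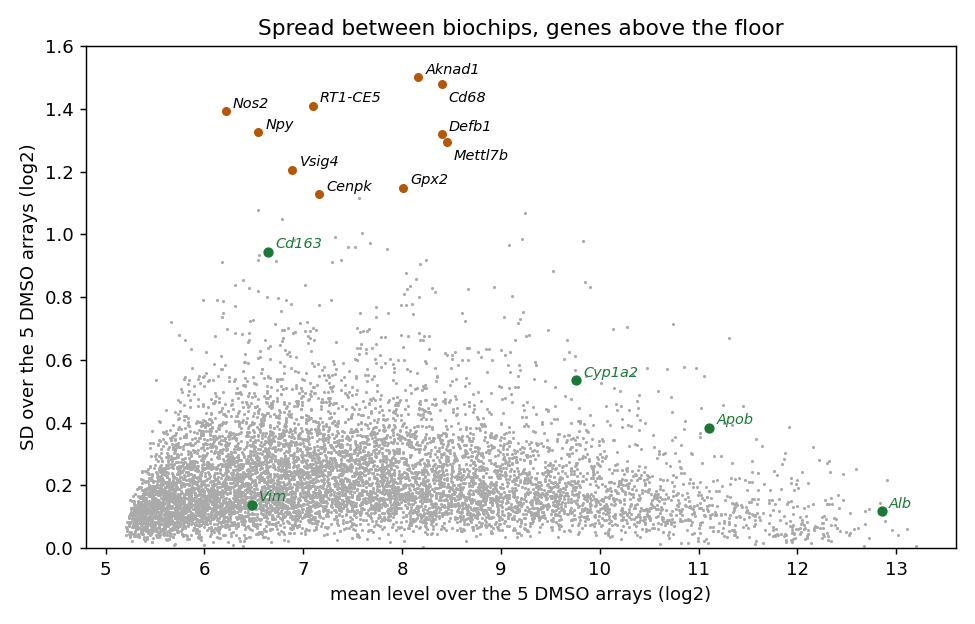
SD over the 5 DMSO arrays (log2, vertical axis) against mean level (log2, horizontal axis) of the 8394 genes above the floor, 1 grey point each, with the 10 genes of largest SD in orange and the 5 markers in green. Most genes lie under 0.4, and the named genes reach 1.50.

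Among genes above the floor in all 5 arrays, the 10 of largest SD were Aknad1 (1.50), Cd68 (1.48), the class I histocompatibility gene RT1-CE5 (1.41), Nos2 (1.39), neuropeptide Y (Npy, 1.32), beta-defensin Defb1 (1.32), Mettl7b (1.29), Vsig4 (1.21), the glutathione peroxidase Gpx2 (1.15) and the centromere gene Cenpk (1.13). Outside that set, Slc15a1 had a larger SD (1.95), with 5.10, 5.99, 9.14, 9.59 and 7.71, and passed the floor in 4 arrays. Cd46 (SD 1.40, 4 arrays) and RT1-N2 (SD 1.37, 2 arrays) were also outside it. Aknad1 read 9.82, 9.78, 7.02, 7.30 and 6.90. RT1-CE5 read 8.94, 8.29, 6.05, 5.96 and 6.23, with the reservation that rat class I genes are near-identical copies. Npy read 8.41, 7.48, 5.52, 5.54 and 5.76. In these 3, as in Cd68, Gpx2 and Cenpk, biochips 10 and 11 were above the other 3, and Mettl7b (7.41, 6.82, 8.99, 9.08 and 9.96) ran the other way.

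Several other genes had their highest or lowest value in biochip 22. Inducible nitric oxide synthase, Nos2, read 5.73, 5.89, 5.54, 5.26 and 8.67, 6.89-fold above the next highest DMSO array. Defb1 read 8.20, 8.50, 9.36, 9.65 and 6.29, lowest in that biochip. Ripk2, a kinase of innate immune signalling, read 6.31, 5.99, 6.52, 6.50 and 8.63, and the interferon-induced chemokine Cxcl10 read 7.66, 9.05, 9.32, 9.57 and 10.63. Across all flutamide arrays Nos2 stayed between 4.69 and 6.72 and Ripk2 between 5.10 and 6.92.

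Biochip numbers in the titles run from 10 to 16 and from 20 to 27. Each run, called a number series here, holds all 3 groups, and its meaning is not given. Pairs of DMSO arrays of the same series correlated over all genes at r = 0.9881 to 0.9925 (4 pairs), and pairs of different series at 0.9851 to 0.9872 (6 pairs). Between 39 and 167 genes differed over 2-fold within a series and between 170 and 271 across series. Because the means of some liver lists lay apart by series, the values for all 5 biochips are given for many genes. For the others, given as mean ± SD, a difference between the series is part of the SD and cannot be seen. The P450 list mean was 7.67, 7.74, 8.06, 8.05 and 8.07, that of conjugation enzymes 8.37, 8.46, 8.71, 8.75 and 8.74, and that of fatty acid oxidation 8.01, 8.33, 8.55, 8.62 and 8.49.

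Counted by gene, all 3 arrays of the second series lay above both arrays of the first in 15 of 29 fatty acid oxidation genes, 14 of 37 P450 system genes, 12 of 28 bile acid genes and 10 of 25 conjugation enzymes. They lay below in 2, 4, 5 and 1. Other lists leaned the same way, so the lean was not particular to these. Gluconeogenesis and glycogen had 8 of 17 above and 2 below, and endothelial cells 9 of 23 and 2. Complement and coagulation had 12 of 32 and 6, and cytoskeleton and adhesion 15 of 42 and 7. Urea cycle and amino acid breakdown had 11 of 36 and 4. Over all 14506 genes the shares were 15.6% above and 14.9% below. Cell cycle genes lay the other way, with 2 of 34 above and 13 below, but this lean was not particular to them either. Genes of other organs, the reference list, had 4 of 43 above and 11 below. Fetal and progenitor genes had 0 of 17 and 5, and genes of mesenchymal transition and wound matrix 4 of 26 and 7. Plasma protein genes were even, with 3 of 25 above and 3 below.

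**Figure D5:**
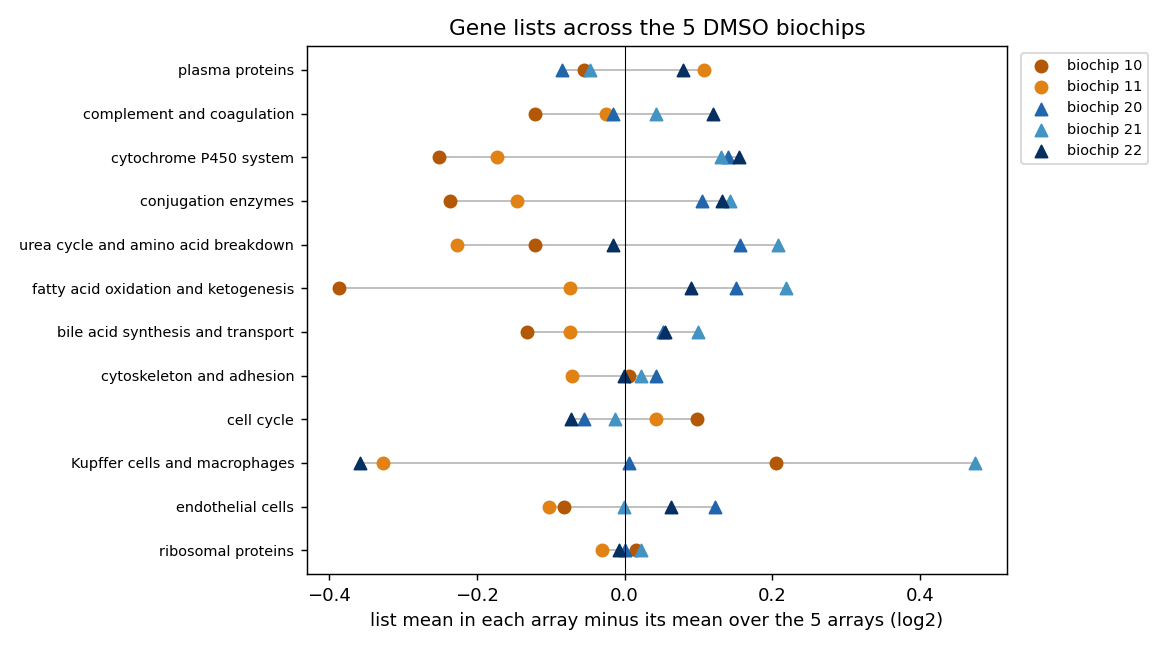
Mean level of 12 gene lists in each DMSO array, minus that list's mean over the 5 arrays (log2, horizontal axis), with circles for biochips 10 and 11 and triangles for 20, 21 and 22. The circles lie left of the triangles for P450, conjugation, fatty acid oxidation and bile acid genes, but not for these alone. Means of the endothelial, amino acid breakdown and complement lists were likewise lower in biochips 10 and 11 than in 20, 21 and 22. The macrophage list has the widest spread, from 5.76 to 6.59 before centring, and the ribosomal proteins lie close to 0.

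In limma's moderated test of the DMSO arrays of series 2 against series 1, fitted over all 15 arrays with Benjamini-Hochberg adjustment over 14506 genes, 36 genes passed an adjusted p of 0.05, 23 of them higher in series 2 (0.159%) and 13 lower (0.0896%). The number with an unadjusted p under 0.05 was 1289. Of the listed genes, 3 passed. Cd68 differed by -2.69 (SE 0.40, adjusted p = 0.0164). Gsta3, a glutathione transferase of the alpha class, read 8.29, 8.17, 9.03, 9.12 and 9.02 and was higher by 0.82 in series 2 (SE 0.12, adjusted p = 0.0164). Hgd, a step of tyrosine breakdown, read 6.61, 6.05, 8.15, 7.65 and 7.97 and was higher by 1.59 (SE 0.28, adjusted p = 0.0389). For each of these the 2 series did not overlap, but series 1 holds only 2 DMSO arrays. Leaving out biochip 10 or 11 leaves 1 array there, so a lost call then reflects lost replication and does not show that 1 array carried the difference. Biochip 11 alone read 9.87 for Cd68, against 7.18 to 7.52 in series 2. Hgd passed with none of the 5 DMSO arrays left out.

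The lowest p was that of Aknad1, with a difference of -2.73 (SE 0.17, adjusted p = 3.13e-05 in limma). The next were RT1-N2 (-2.49), the receptor gene Timd2 (-1.34), the RNA helicase Ddx21 (0.93), the decarboxylase Ddc (1.33), RT1-CE5 (-2.53), the peroxisomal oxidase Hao1 (1.50) and the caspase Casp12 (1.80), with adjusted p from 0.0037 to 0.0124. Timd2 read 9.98, 10.08, 8.71, 8.46 and 8.91, and Hao1 read 5.48, 5.63, 7.02, 7.20 and 6.93. With a single series 2 array left out, the number called was 9 without biochip 20, 20 without 21 and 48 without 22. Of the 36 genes themselves, 2, 7, 8, 15 and 28 were still called. Quality weights on the arrays gave 347, and Aknad1 was the only gene called under every setting tried.

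In the flutamide arrays the same test called 7 genes higher in series 2 (0.0483%) and 22 lower (0.152%). There, 6 of the 36 genes also passed the same test of series 2 against series 1 in the same direction, namely RT1-N2 (-2.12), Timd2 (-1.29), RT1-CE5 (-1.87), Casp12 (0.97), Gpx2 (-2.79) and Pla1a (-1.71). The sign was shared by 24 of the 36, against 50.6% of all genes. Aknad1 did not carry over, with -0.15 in the flutamide arrays. Its levels there were 9.32 to 9.99 at 10 µM and 9.64 to 9.95 at 100 µM, so only DMSO biochips 20, 21 and 22 were near 7. Cd68 was likewise at 8.31 to 10.50 in all flutamide arrays, above all 3 of those DMSO arrays. Whether the difference between the series itself differed between DMSO and flutamide was not tested.

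The baseline pattern was also that of the exposed biochips in its broad outline. Of the 8394 genes above the floor in DMSO, 7638 were above it in all 10 flutamide arrays (91.0% of the DMSO set and 99.1% of the flutamide set of 7710, which is 53.2% of all genes), and 0 genes were above it in all DMSO arrays and in no flutamide array. In limma, fitted with 3 group means over the 15 arrays, 0 of 14506 genes passed an adjusted p of 0.05 for 10 µM against DMSO (0%), with 1009 at an unadjusted p under 0.05, 2 with array quality weights, and 1 when DMSO biochip 11 or 22 was left out. For 100 µM it was 0 (0%), with 934. Both comparisons share the 5 DMSO arrays. Alb was 12.85 in DMSO, 12.95 at 10 µM and 12.93 at 100 µM, Cyp1a2 was 9.76, 10.19 and 9.96, and Vim was 6.48, 6.10 and 6.48. Cd163 was lower, with 6.65, 6.13 and 5.56, and passed the floor in 8 of the 10 flutamide arrays. Of 25 macrophage markers, 16 were above the floor in all 5 DMSO arrays and 9 in all 10 flutamide arrays. Across the 8394 genes above the floor in DMSO, the median SD was 0.251 within the 10 µM group and 0.205 within the 100 µM group, against 0.188 within DMSO.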

How the data were processed

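The series holds 15 Affymetrix arrays for rat genes, 1 per biochip, each from 100 ng total RNA (RNA integrity number 9.3 to 10 per the labels' protocols). The authors deposited log2 values per probe set, made with RMA and Partek per the submitters' processing notes, with versions and settings not given in the sources used here. In the 5 DMSO columns they ran from minima of 1.80 to 1.98 to maxima of 13.37 to 13.43, and they were used as deposited. RMA equalises the distribution of values between arrays, so a shift shared by all genes would not be seen. No detection values were used, and with no reads to count the precision is set by how many arrays a group has.

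Of 29214 probe sets, 15310 had 1 gene symbol and were used. The other 13904, of which 323 had several genes, were left out. By gene identifier, 15279 symbols were updated to RefSeq genes of assembly GRCr8. The probe set of highest mean over the 15 arrays stood for each of 14506 genes, 527 of which had several. The gene lists, 29 besides the ribosomal proteins, hold 794 entries, of which 695 were measured (649 genes), matched by exact symbol. They are named in the plot of listed genes. Members and lists were chosen with earlier results of these data known.

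Named genes are the 5 markers, per list up to 5 genes of highest mean, those of largest SD and those not above the floor, the 15 genes of highest level, the 10 of largest SD among genes above the floor in all 5 arrays, the 8 of lowest p between the number series, and genes nearest the floor. Other named genes, among them Cxcl10, Ripk2 and the haemoglobin genes, and the count of macrophage markers that share an order of biochips were chosen after their values were seen.

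Levels, ranks and SDs were computed in python 3.11.15 with pandas 2.3.3. Contrasts were fitted with limma 3.58.1 (lmFit, eBayes) in R 4.3.3 on all 15 arrays, with 6 group by series means (9 residual degrees of freedom) or 3 group means (12), and Benjamini-Hochberg adjustment over 14506 genes. On simulated data of 14506 genes with the design of the series contrast, 34.3% of 1.5-fold, 61.2% of 2-fold and 98.5% of 4-fold changes were recovered. Alternatives were other floors, other probe sets, repeated quantile normalization, array weights and leaving out each array.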

Additional observations from a re-analysis of the deposited data

Results flagged for a closer look

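In the DMSO group, 1 array lay apart from the other 4 by more than Dixon's 95% limit (a gap over the range above 0.71) in 11 of 262 genes checked, all named in the text. Chance flags about 1 in 20 groups, and 11 of 262 is no more than that rate would give. Some of the 262 were named for a large SD or after their values were seen, so the rate is only a rough guide.

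Biochip 22 was the high array in 5 of the 11 flagged genes. Nos2 stood at 8.67 there against 5.26 to 5.89 in the other 4 arrays, Ripk2 at 8.63 against 5.99 to 6.52, and Ugt2b7 at 6.31 against 5.05 to 5.30. The haem scavenger gene Hpx stood at 12.60 against 12.26 to 12.30, and Acot1 at 3.46, still below the floor, against 2.97 to 3.09.

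Biochip 10 was high for S100a6, at 8.15 against 6.26 to 6.57, and low for Colec11, at 5.28 against 5.40 to 5.44. Biochip 11 was high for the vasopressin receptor gene Avpr1a, at 5.60 against 5.08 to 5.18, and low for Foxa1, at 4.85 against 5.34 to 5.53. Biochip 21 was low for Cd27, at 5.56 against 5.70 to 5.71, and for Ngfr, at 5.35 against 5.63 to 5.73. Colec11, Avpr1a, Foxa1, Cd27 and Ngfr are within 1 unit of the floor.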

How the results depend on the processing

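No paired analysis was possible because no array number is shared between groups. The number series was instead fitted as a 2-level block, which gave 0 calls for 10 µM against DMSO (1109 at an unadjusted p under 0.05) and 0 for 100 µM (993). With the highest olfactory receptor gene of each array as the floor, 4549 genes were above it, and among listed genes 24 of zonation, 36 of dedifferentiation, 12 isoforms, 16 of growth, 7 markers of other cell types and 0 genes of other organs. At the 99th percentile these were 13 isoforms, 19 markers of other cell types and 3 genes of other organs. With 135 vomeronasal receptor genes as the floor, 71 markers of other cell types and 15 genes of other organs were above it. The median level of dedifferentiation genes was 6.01 with the probe set of lowest mean, against 6.48. Floor settings cannot change a median level or an SD. The median SD over genes above the floor was 0.178 to 0.187 with 1 array left out and 0.161 within number series, against 0.188, and 0.156 over all genes. The 36 calls between number series became 9 to 48 with biochip 20, 21 or 22 left out, 347 with quality weights and 16 from the 5 DMSO arrays alone. For 10 µM against DMSO, leaving out 1 array gave 0 to 1 calls (1 without biochip 11, 1 without biochip 22) and quality weights gave 2, against 0. For 100 µM each setting tried gave 0. The causes were not tested. None of the 36 differences between number series changed sign under the settings run. Some lists did change place against the share of all genes. At the main floor, 64.0% of macrophage markers, 61.8% of isoforms and 67.3% of growth genes passed, against 57.9% of all genes. At the 99th percentile it was 13 of 34 isoforms, against 45.2%. At the highest olfactory receptor gene it was 3 of 25 macrophage markers and 30.8% of growth genes, against 31.4%. Signal near the floor limits what can be said of dim genes.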
